A study of Mus musculus with 6 samples.

Results

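The heat shock proteins and molecular chaperones were examined in RNA sequencing of MA-10 cells, which are tumor Leydig cells of the mouse kept as a line, and of STARKO1 cells made from them. The genes were taken by name. They are the protein-coding genes whose symbol starts with Hsp, Dnaj, Cct followed by a digit from 1 to 8, Bag or Hsf followed by a digit, Ahsa, Cdc37 or Pfdn, together with Tcp1, Stip1 and St13 and without Hspg2, which encodes a matrix proteoglycan. The rule took 95 of the 14774 genes in the deposited table, and 90 of them passed the filter on low counts among 11939 genes tested. The 5 that did not pass were Cct6b, Dnajb13, Hspb2, Hspb8 and Hspb9. Each cell line was represented by 3 libraries, and both were untreated. MA-10 cells were wild type. STARKO1 cells are a single clone, grown from 1 sorted cell after CRISPR/Cas9 targeting of exon 2 of Star, so effects of the disrupted gene and properties of that clone cannot be told apart. The labels do not say whether the 3 libraries of a line came from separate cultures, and the p-values therefore measure only the spread between these libraries.

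Chaperones bind unfolded or partly folded proteins and keep them from aggregating. HSP70 proteins do so in cycles of ATP hydrolysis that J proteins (HSP40) start and nucleotide exchange factors such as BAG proteins end, HSP90 proteins act on nearly folded clients such as kinases and steroid receptors, and the CCT and mitochondrial chaperonins enclose a protein in a chamber. Heat shock factors raise the cytosolic and mitochondrial members under stress, and the unfolded protein response raises those of the endoplasmic reticulum. Steroidogenic Leydig cells import nuclear-encoded proteins such as STAR, the steroidogenic acute regulatory protein, into their mitochondria, a step that uses mitochondrial HSP70.

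The 6 libraries held between 14114351 and 19530062 counts, and the lowest level that could be shown was set to 3 counts, no more than 0.264 CPM for any MA-10 library or 0.177 CPM for any STARKO1 library. CPM, the usual depth-scaled level, was computed with library sizes scaled by TMM. Star, the targeted gene, had 1064, 1261 and 697 counts in MA-10 libraries 1, 2 and 3 and 48, 46 and 36 in STARKO1 (log2 fold change -5.09 ± 0.33, SE, adjusted p = 0.00121 in edgeR). All 9 Leydig cell markers were in the table, with a summed level of 1560 to 2098 CPM in MA-10 and 1408 to 1457 CPM in STARKO1. Of the endothelial markers, Cdh5 rose in STARKO1 (adjusted p = 0.00596 in edgeR, summed level of the 2 listed markers 26.4 to 41.5 CPM against 118 to 124 CPM) while Pecam1 stayed under 1 CPM and Kdr was not in the table, and the summed levels of the germ cell, macrophage and smooth muscle markers in the table were under 10 CPM in every library. One of the Leydig cell markers, Hsd3b1, which encodes an enzyme of steroid synthesis, fell, with 27.8, 37.2 and 24.3 CPM in MA-10 and 5.12, 5.72 and 4.72 CPM in STARKO1 (adjusted p = 0.00268 in edgeR). The part of these markers in the results was not tested. Of the 5 Sertoli cell markers, Sox9, Amh and Fshr were not in the table, and Dhh and Rhox5 together reached 333 to 524 CPM in MA-10 and 565 to 589 CPM in STARKO1. MA-10 replicate 1 stood apart from the other MA-10 libraries. The noncoding 7SL RNA took 1.81% of its counts against 14.4% and 6.63% in the other MA-10 libraries, and between 1.82% and 2.37% in STARKO1, and 87 ribosomal protein genes took 4.45% against 8.48% and 7.61%, and between 4.08% and 4.26% in STARKO1. For each family the number of members called is therefore given with and without that library.

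In edgeR with all 6 libraries, the share of chaperone genes called was no higher than the background. Between the cell lines, 6 of the 90 tested members (6.67%) passed an adjusted p of 0.05 in edgeR, against 9.04% of all genes tested. Cct3 and Hspa12a rose in STARKO1 cells (2 members, all genes 4.3%), and Dnajb4, Dnajb9, Dnajc18 and Hspb6 fell (4 members, all genes 4.74%). A second group of members, led by the prefoldin subunits, Hspe1 and Dnajb6, was many-fold higher in MA-10 replicates 2 and 3 than in every other library, MA-10 replicate 1 included, and did not pass that test. DESeq2, an alternative test on the same 6 libraries, called 9 members higher and 28 lower of 93 with an adjusted p, against 9.48% and 15.4% of all genes, or 24.9% in either direction. In DESeq2 the share of members called lower was thus above that of all genes, and the share called higher was close to it.

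**Figure D1:**
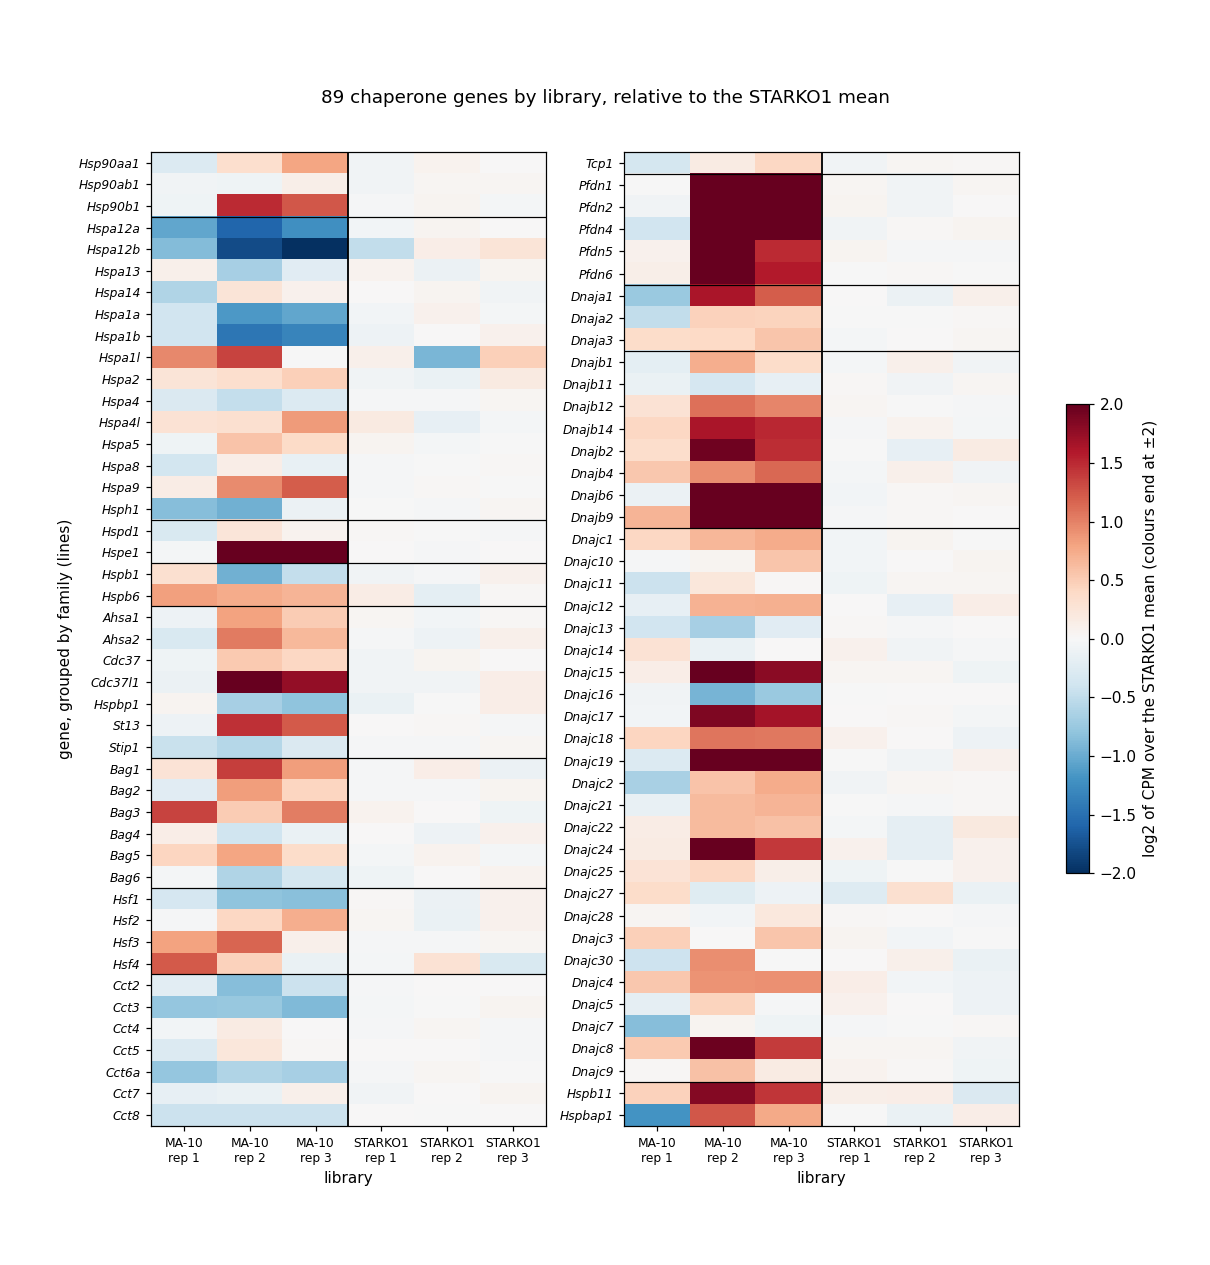
The heat map gives, for 89 of the 90 tested chaperone genes in rows grouped by family, the log2 ratio of the CPM in each of the 6 libraries (columns) to the mean of the 3 STARKO1 libraries, with red for higher and blue for lower and colours ending at a ratio of 2 on the log2 scale. The 3 STARKO1 columns are pale throughout, MA-10 replicates 2 and 3 hold the darkest cells, and MA-10 replicate 1 is pale for most of the genes that are dark in the other MA-10 libraries, such as the prefoldin subunits.

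Without adjustment, p was under 0.05 for 10 members that were higher in STARKO1 and 31 that were lower, against 15% and 22.7% of all genes. The 3 libraries of one line lay wholly above those of the other for 15 members higher in STARKO1 and 24 lower, and the same held for 21.5% and 21% of all genes. The median log2 fold change, STARKO1 over MA-10, was -0.36 over the 90 members and -0.05 over all tested genes. These differences moved with the scaling. The 95 members took 2.57%, 2.53% and 2.87% of the unscaled counts in MA-10 libraries 1, 2 and 3 and 2.96%, 3.00% and 2.99% in STARKO1. After TMM scaling the same genes summed to 22301, 38666 and 35624 CPM in MA-10 and to between 24832 and 25569 CPM in STARKO1. With library size alone the median of all genes moved from -0.05 to 0.38. The fold changes of 29 of the 90 members turned sign, as did those of 2799 of all 11939 genes. No member was called there, and 330 of all genes were. With upper quartile scaling the calls were 3 members higher and 1 lower, among 829 genes called.

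Cct3 encodes the gamma subunit of CCT, the cytosolic chaperonin of 8 different subunits that folds actin and tubulin (Cct3, chromosome 3, 88297116 to 88321768, forward strand, build GRCm38). Its level was 143, 145 and 134 CPM in MA-10 libraries 1, 2 and 3 and 239, 243 and 254 CPM in STARKO1. The MA-10 libraries lay close together, all below the STARKO1 libraries, and the log2 fold change was 0.80 ± 0.15 (SE, adjusted p = 0.0293, edgeR, n = 3 per line). Hspa12a, a distant relative of the HSP70 proteins, is on chromosome 19 (58795750 to 58943655, reverse strand). It had 28.3, 19.5 and 25.1 CPM in MA-10 and 56.4, 60.5 and 58.6 CPM in STARKO1, and the lowest STARKO1 library lay above the highest MA-10 library. Its log2 fold change was 1.26 ± 0.18 (SE, adjusted p = 0.0132 in edgeR).

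Of the 4 members that fell in STARKO1, 3 encode J proteins, which bind HSP70 and stimulate its ATPase. Dnajb9, a J protein of the endoplasmic reticulum (chromosome 12, 44205559 to 44210327, reverse strand), had 16.1, 41.2 and 41.4 CPM in MA-10 and 9.89, 10.3 and 10.1 CPM in STARKO1, a log2 fold change of -1.70 ± 0.36 (SE, adjusted p = 0.0383 in edgeR). MA-10 replicate 1 was nearer to the STARKO1 libraries than to MA-10 replicates 2 and 3, but above them. Dnajb4, a cytosolic J protein (chromosome 3, 152178511 to 152210303, reverse strand), had 56.4, 73.98 and 85.6 CPM in MA-10 and 37.8, 41.6 and 36.9 CPM in STARKO1, a log2 fold change of -0.89 ± 0.19 (SE, adjusted p = 0.0401 in edgeR). Dnajc18, another J protein of the endoplasmic reticulum, had 34.4, 53.4 and 53.4 CPM in MA-10 and 27.3, 25.6 and 23.9 CPM in STARKO1, a log2 fold change of -0.88 ± 0.21 (SE, adjusted p = 0.0494 in edgeR). For both genes the groups did not overlap and MA-10 replicate 1 was the lowest MA-10 library. Hspb6, a small heat shock protein (chromosome 7, 30552178 to 30555444, forward strand), had 13.7, 13.1 and 12.6 CPM in MA-10 and 8.65, 6.84 and 7.98 CPM in STARKO1, a log2 fold change of -0.75 ± 0.17 (SE, adjusted p = 0.04299 in edgeR). Its 3 MA-10 libraries were alike and above the 3 STARKO1 libraries. An exon of Hspb6 overlaps Proser3 on the opposite strand by 122 bases, and the sources used here do not say whether strand was used in counting.

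The direction of these 6 genes was the same in the 6 fits that left out 1 library, in 8 other alternatives and with MA-10 replicate 1 as the only MA-10 library, but the calls were not stable. Without MA-10 replicate 1 all 6 passed. Without MA-10 replicate 2, Cct3 and Hspa12a passed and the other 4 did not, and without MA-10 replicate 3, or without any single STARKO1 library, none of the 6 did. Over the fits that left out 1 library, the adjusted p in edgeR reached 0.182 for Cct3, 0.0896 for Hspa12a, 0.177 for Dnajb9, 0.203 for Dnajb4, 0.213 for Dnajc18 and 0.198 for Hspb6.

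**Figure D2:**
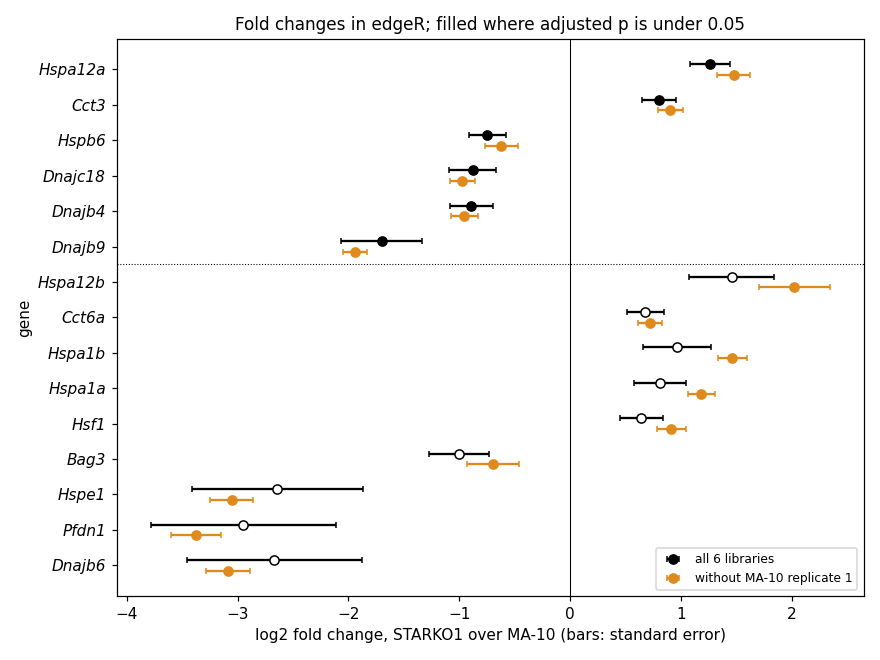
The plot gives the log2 fold change (STARKO1 over MA-10, x axis) with its standard error for 15 chaperone genes (y axis), from all 6 libraries in black and without MA-10 replicate 1 in orange, with filled points where the adjusted p was under 0.05. The 6 genes above the dotted line passed with all libraries. The 9 below it, with values between 1.46 for Hspa12b and -2.95 for Pfdn1, were open points with all libraries and filled without MA-10 replicate 1.

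The 3 HSP90 genes ranked 1, 5 and 9 of 94 members by level per kb of exon averaged over the 6 libraries. Hsp90ab1, the constitutive cytosolic HSP90, was the highest in both lines, at 1725 CPM per kb in MA-10 and 1738 CPM per kb in STARKO1. Its level was 4949, 4905 and 5666 CPM in MA-10 and 4968, 5335 and 5332 CPM in STARKO1, and the groups overlapped (adjusted p = 0.978 in edgeR). Hsp90aa1, the stress-inducible cytosolic form, had 1281, 1968 and 2685 CPM in MA-10 and 1476, 1626 and 1562 CPM in STARKO1 (adjusted p = 0.434). Hsp90b1, the HSP90 of the endoplasmic reticulum (GRP94), had 811, 2433 and 2045 CPM in MA-10 and 853, 899.9 and 837 CPM in STARKO1, a log2 fold change of -1.03 ± 0.41 (SE, adjusted p = 0.119). For Hsp90b1, MA-10 replicate 1 lay just below the STARKO1 libraries, and MA-10 replicates 2 and 3 lay above them. None of the 3 HSP90 genes passed in DESeq2 or in edgeR with all 6 libraries. In that edgeR fit 1, Hsp90b1, had an unadjusted p under 0.05 (lower, all genes 22.7%). Without MA-10 replicate 1, 2 of them, Hsp90aa1 and Hsp90b1, were lower in STARKO1 at an adjusted p under 0.05 in edgeR (all genes 31.7%).

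Among the 14 HSP70 and HSP110 genes, Hspa12a passed in edgeR (1 higher, all genes 4.3%), and 6 lay wholly above and 3 wholly below MA-10 in STARKO1 (all genes 21.5% and 21%). DESeq2 called 4 higher, Hspa12a, Hspa12b, Hspa1a and Hspa1b, and 1 lower, Hspa9 (all genes 9.48% and 15.4%). Without MA-10 replicate 1, edgeR called 6 higher, adding Hspa4 and Hspa13 to those 4, and 3 lower, Hspa9, Hspa5 and Hspa4l (all genes 34% and 31.7%). Hspa8, the constitutive cytosolic HSP70, was the third gene in the order of levels per kb of exon averaged over the 6 libraries, with 2624, 3718 and 3068 CPM in MA-10 and 3360.3, 3384 and 3456 CPM in STARKO1 (adjusted p = 0.756). The groups overlapped. Hspa1a and Hspa1b, the neighbouring heat-inducible HSP70 genes, were higher in every STARKO1 library than in any MA-10 library, at 59.8, 34.95 and 37.7 CPM against 74.8, 82.8 and 75.3 CPM for Hspa1a and 195, 93.6 and 102 CPM against 236, 257 and 270.0 CPM for Hspa1b. The log2 fold changes were 0.81 ± 0.23 and 0.96 ± 0.31 (SE), and neither passed the test (adjusted p = 0.0674 and 0.0791 in edgeR, 0.0162 and 0.0198 in DESeq2). MA-10 replicate 1 held more of both than MA-10 replicates 2 and 3 and lay closest to STARKO1. The coding sequences of this pair are 99.5% identical, with 10 differing bases, and their starts are 12918 bases apart, so the division of counts between them is uncertain.

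Hsph1, an HSP110 protein that acts as exchange factor for HSP70, had 99.2, 92.2 and 165 CPM in MA-10 and 178, 177 and 183 CPM in STARKO1, with no overlap (log2 fold change 0.59, adjusted p = 0.134). Its relative Hspa4 had 298, 263 and 304 CPM against 360.1, 360.1 and 375 CPM, also without overlap (log2 fold change 0.34, adjusted p = 0.183). Hspa12b, the closest relative of Hspa12a, had 3.61, 1.91 and 1.497 CPM against 4.65, 7.19 and 7.87 CPM, a log2 fold change of 1.46 ± 0.39 (SE, adjusted p = 0.05998). Both Hspa12 genes were thus at low levels per kb of exon and above MA-10 in every STARKO1 library. Hspa9, the mitochondrial HSP70 that pulls imported proteins into the matrix, had 1428, 2484 and 2992 CPM in MA-10 and 1272, 1319.6 and 1292 CPM in STARKO1, without overlap (log2 fold change -0.83, adjusted p = 0.112). Hspa5, the HSP70 of the endoplasmic reticulum (BiP), had 1086, 1715 and 1498 CPM against 1189, 1117 and 1143 CPM (adjusted p = 0.366), and the groups overlapped. MA-10 replicate 1 was the lowest MA-10 library for both genes.

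The remaining HSP70 genes did not pass in edgeR with all 6 libraries either. Hspa4l had 66.3, 67.9 and 97.3 CPM in MA-10 and 61.3, 48.2 and 52.9 CPM in STARKO1, and Hspa2, known for its part in spermatogenesis, had 19.9, 20.99 and 23.2 CPM against 15.96, 15.2 and 18.9 CPM, and the MA-10 libraries of both lay above all STARKO1 libraries (adjusted p = 0.124 and 0.1602). Overlapping groups were found for Hspa13 (47.2, 27.8 and 37.95 CPM against 46.2, 40.7 and 45.7 CPM, adjusted p = 0.454) and for Hspa14, a ribosome-associated member (55.3, 99.7 and 88.3 CPM against 84.4, 86.8 and 79.8 CPM, adjusted p = 0.899). Hspa1l stayed between 0.236 and 1.13 CPM in all libraries (adjusted p = 0.241).

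The mitochondrial chaperonin pair behaved differently between libraries. Hspd1 (HSP60) forms the chamber and Hspe1 (HSP10) its lid, and the genes lie head to head on chromosome 1, Hspd1 from 55077835 to 55088244 on the reverse strand and Hspe1 from 55088132 to 55091308 on the forward strand, with 112 exonic bases in common. Hspd1 had 1205, 1759.6 and 1558 CPM in MA-10 and 1512, 1488 and 1468 CPM in STARKO1 (adjusted p = 0.9604). Hspe1 had 315, 3582 and 2167 CPM in MA-10 and 326, 320.3 and 325 CPM in STARKO1, a log2 fold change of -2.64 ± 0.77 (SE, adjusted p = 0.0688 in edgeR and 0.00168 in DESeq2). For Hspe1, MA-10 replicate 1 lay just below the STARKO1 libraries, and MA-10 replicates 2 and 3 lay far above them. Hspd1 showed a much smaller spread, with MA-10 replicate 1 lowest. Without MA-10 replicate 1 Hspe1 was called, with a log2 fold change of -3.05 (adjusted p = 1.53e-05), and with MA-10 replicate 1 as the only MA-10 library the value was 0.04 (adjusted p = 0.655, with the spread taken from STARKO1).

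The 5 prefoldin genes taken by name showed the same split. Prefoldin is a cytosolic complex that hands unfolded actin and tubulin to CCT. Another of its subunits, Vbp1, lies outside the symbol rule and split far less. Vbp1 had 59.8, 90.6 and 91.8 CPM in MA-10 and 57.3, 55.7 and 51.9 CPM in STARKO1 (log2 fold change -0.55, adjusted p = 0.102 in edgeR). Summed over the 5 genes taken by name, the level was 371, 2669 and 1605 CPM in MA-10 libraries 1, 2 and 3 and 374, 358 and 365 CPM in STARKO1. Pfdn1 had 72.7, 1057 and 570.2 CPM in MA-10 and 75.1, 69.6 and 75.1 CPM in STARKO1, Pfdn2 had 49.1, 339 and 212 CPM and 53.6, 48.98 and 51.9 CPM, and Pfdn4 had 18.5, 303 and 204 CPM and 23.01, 24.5 and 25.1 CPM. Pfdn5 had 198, 842 and 527 CPM in MA-10 and 193, 184 and 183 CPM in STARKO1, and Pfdn6 had 32.7, 128 and 91.3 CPM and 30.1, 30.7 and 30.1 CPM. For all 5 genes MA-10 replicate 2 was the highest library and MA-10 replicate 3 the next, and MA-10 replicate 1 was within 1.25-fold of the STARKO1 mean for all but Pfdn4, where it was below. The log2 fold changes ranged from -2.95 for Pfdn1, -2.86 for Pfdn4 and -1.96 for Pfdn2 to -1.49 for Pfdn5 and -1.47 for Pfdn6, and none passed in edgeR with all 6 libraries (adjusted p between 0.0654 and 0.0817), while DESeq2 called all 5 lower (adjusted p between 0.00087 and 0.0164). The 5 log2 fold changes stayed below 0 with library size alone, between -2.25 and -0.86. Without MA-10 replicate 1 all 5 were lower in STARKO1 at an adjusted p under 0.05. Over all genes the share called lower was 31.7% in that fit and 15.4% in DESeq2. With MA-10 replicate 1 as the only MA-10 library, Pfdn4 was called in the other direction, with a log2 fold change of 0.39, and the other 4 were not called.

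The CCT subunits did not follow prefoldin. Summed over the 9 genes, the level was 3255, 3861 and 4100.1 CPM in MA-10 and between 4037 and 4181 CPM in STARKO1. Of the 8 tested subunits 4, Cct2, Cct3, Cct6a and Cct8, were higher in every STARKO1 library than in any MA-10 library (all genes 21.5%). Cct3 alone was called with all 6 libraries in edgeR, Cct3, Cct6a and Cct8 in DESeq2, and all 4 in edgeR without MA-10 replicate 1. The shares of all genes called higher were 4.3%, 9.48% and 34% in the same order. Cct6a had 217, 245 and 234 CPM in MA-10 and 364, 381 and 368 CPM in STARKO1 (log2 fold change 0.68 ± 0.17, SE, adjusted p = 0.0516), just short of the threshold. Cct8 had 212, 212 and 213 CPM against 288, 285 and 289 CPM (log2 fold change 0.44, adjusted p = 0.0964), and Cct2 had 476, 307 and 411 CPM against 543, 557 and 555 CPM (log2 fold change 0.47, adjusted p = 0.165). For Cct3, Cct6a and Cct8 the 3 MA-10 libraries were close to each other, so the split between MA-10 libraries seen for prefoldin was absent from these values. Tcp1, the alpha subunit, had 919.8, 1318 and 1567 CPM in MA-10 and 1122, 1209 and 1196 CPM in STARKO1 and Cct5 had 767, 1077 and 939 CPM against 931, 926 and 911 CPM, and these were the highest of the subunits per kb of exon. Cct4 had 166, 193 and 174 CPM against 170.0, 178 and 169.6 CPM and Cct7 354, 362 and 429 CPM against 379.9, 402 and 412 CPM. These 4 subunits overlapped between the lines (adjusted p between 0.774 and 0.982). As a share of all counts of the 9 CCT genes, Cct3 took 3.81% ± 0.568 (SD, n = 3) in MA-10 and 5.95% ± 0.152 in STARKO1. In the same order, Cct6a took 6.24% ± 0.497 and 8.997% ± 0.122. The testis-specific form Cct6b was at 0.0589 to 1.30 CPM and was not tested. Exons of Cct6a and Cct8 overlap genes on the opposite strand by 452 and 192 bases, and Cct6a also overlaps Snora15 on the same strand by 102 bases.

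**Figure D3:**
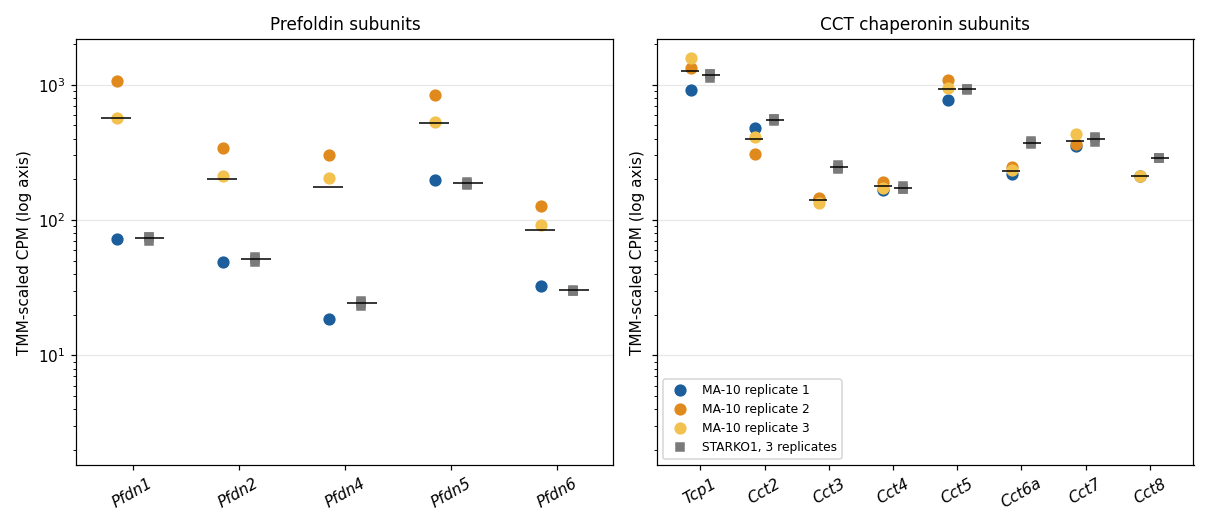
Levels in CPM on a log axis (y) of the 5 prefoldin subunits taken by name, without Vbp1 (left), and the 8 tested CCT subunits (right). Coloured circles are MA-10 replicates 1, 2 and 3, grey squares the 3 STARKO1 libraries and bars the mean of each line. For prefoldin the blue circle of MA-10 replicate 1 sits at the grey squares and the other circles above them, while for Cct3, Cct6a and Cct8 the 3 circles sit together below the squares.

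The heat shock factors ranked between 70 and 89 of 94 members by level per kb of exon averaged over the 6 libraries. Hsf1, the main activator of the heat shock response, had 15.1, 10.9 and 10.7 CPM in MA-10 and 19.5, 17.6 and 20.2 CPM in STARKO1 and did not overlap (log2 fold change 0.64 ± 0.19, SE, adjusted p = 0.0724). Hsf2 had 44.96, 60.6 and 75.7 CPM against 46.97, 41.6 and 48.4 CPM (adjusted p = 0.2103). Hsf3 stayed between 0.645 and 1.47 CPM, with all MA-10 libraries above STARKO1 (adjusted p = 0.171), and Hsf4, a factor known from the lens, stayed between 2.19 and 6.299 CPM with overlap (adjusted p = 0.249). None of the 4 passed in edgeR with all 6 libraries. In that fit 1, Hsf1, had an unadjusted p under 0.05 (higher, all genes 15%). DESeq2 called Hsf1 higher (adjusted p = 0.0287), and without MA-10 replicate 1 edgeR called Hsf1 higher and Hsf2 lower (adjusted p = 0.000475 and 0.0154). Over all genes DESeq2 called 9.48% higher, and edgeR without that library called 34% higher and 31.7% lower.

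The small heat shock proteins, which hold unfolded proteins without ATP, were few. Hspb1 (HSP25 in the mouse) had 42.6, 17.4 and 24.4 CPM in MA-10 and 32.3, 33.5 and 36.1 CPM in STARKO1 (adjusted p = 0.552). MA-10 replicate 1 was above all STARKO1 libraries and MA-10 replicates 2 and 3 below them. Hspb8, the partner of Bag3 in the disposal of misfolded proteins, had 14, 2 and 4 counts in MA-10 and was at 0 counts in all 3 STARKO1 libraries, which allows up to 3 counts in each, and with Hspb2 and Hspb9 it did not pass edgeR's filter on low counts. DESeq2, run without that filter, called it lower (adjusted p = 0.00668). In edgeR without MA-10 replicate 1, Hspb1 was called higher and Hspb6 lower (all genes 34% and 31.7%).

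BAG proteins bind HSP70 through a shared domain, and several of the 6 help it to release its substrate by exchanging its nucleotide. With all 6 libraries none passed in edgeR, where 3 had an unadjusted p under 0.05 (all lower, all genes 22.7%). DESeq2 called Bag1 and Bag3 lower (adjusted p = 0.0357 and 0.0199, all genes 15.4%). In edgeR without MA-10 replicate 1 all 6 were called, Bag4 and Bag6 higher and the other 4 lower, in a fit that called 34% of all genes higher and 31.7% lower. Bag1, Bag3 and Bag5 were lower in every STARKO1 library than in any MA-10 library (all genes 21%). Bag3, itself a target of heat shock factor 1, had 7.16, 3.99 and 5.72 CPM in MA-10 and 2.97, 2.83 and 2.64 CPM in STARKO1, a log2 fold change of -1.003 ± 0.27 (SE, adjusted p = 0.0603). Its highest value was in MA-10 replicate 1. Bag1 was the highest BAG gene per kb of exon and had 448, 973 and 666 CPM against 364, 409 and 343 CPM (log2 fold change -0.90, adjusted p = 0.0893), and Bag5 had 38.5, 49.3 and 36.8 CPM against 27.7, 29.8 and 27.8 CPM (log2 fold change -0.55, adjusted p = 0.0757). Bag2, an inhibitor of the ubiquitin ligase CHIP, had 42.4, 88.4 and 66.7 CPM against 48.7, 48.3 and 51.1 CPM, Bag4 had 52.9, 36.9 and 44.03 CPM against 48.4, 45.2 and 51.6 CPM, and Bag6, which guards tail-anchored proteins, had 229, 155 and 184 CPM against 221, 236 and 247 CPM. These 3 overlapped between the lines (adjusted p = 0.281, 0.643 and 0.282).

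The 7 cochaperones of HSP90 and HSP70 held no call in edgeR with all 6 libraries. In that fit 1 was higher and 2 were lower at an unadjusted p under 0.05 (all genes 15% and 22.7%). DESeq2 called Stip1 higher and Cdc37l1 lower (adjusted p = 0.0212 and 0.0221, all genes 9.48% and 15.4%). Without MA-10 replicate 1 edgeR called all 7, Stip1 and Hspbp1 higher and the other 5 lower, in a fit that called 34% of all genes higher and 31.7% lower. Stip1 (HOP), which passes clients from HSP70 to HSP90, had 276, 252 and 307 CPM in MA-10 and 371, 367 and 387 CPM in STARKO1 without overlap (log2 fold change 0.43, adjusted p = 0.124). St13 (HIP), which stabilises the substrate-bound state of HSP70, had 264, 783 and 662 CPM against 284, 287 and 279 CPM, and Cdc37l1, a relative of the kinase cochaperone Cdc37, had 27.6, 124 and 101 CPM against 28.4, 28.4 and 32.6 CPM (adjusted p = 0.114 and 0.0861). In both, MA-10 replicate 1 was just below the STARKO1 libraries and the other MA-10 libraries were above them. Cdc37 had 242, 371 and 342 CPM against 247, 268 and 259 CPM, and Ahsa1, the activator of the HSP90 ATPase, had 93.9, 176 and 144 CPM against 104, 96.6 and 102 CPM (adjusted p = 0.3200 and 0.2104). Ahsa2 had 23.8, 60.1 and 46.1 CPM against 28.99, 27.5 and 31.6 CPM, and Hspbp1, an exchange factor for HSP70, had 16.6, 10.1 and 9.16 CPM against 14.6, 16.03 and 17.5 CPM (adjusted p = 0.237 and 0.263). Hspbp1 was thus lower in MA-10 replicates 2 and 3 than in the other 4 libraries, the reverse of Ahsa2.

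The J proteins were the largest family, with 37 genes, of which 36 were tested and 3 fell (all genes 4.74%). Of the tested J proteins, 13 were lower and 3 higher in every STARKO1 library than in any MA-10 library (all genes 21% and 21.5%). DESeq2 called 15 lower and 0 higher (all genes 15.4% and 9.48%). Without MA-10 replicate 1 edgeR called 22 lower and 3 higher (all genes 31.7% and 34%). In class A, Dnaja2, a cytosolic partner of HSP70, was the highest per kb of exon with 289, 558 and 553 CPM in MA-10 and 405, 404 and 412 CPM in STARKO1, followed by Dnaja1 with 163, 847 and 628 CPM against 272, 251 and 292 CPM (adjusted p = 0.624 and 0.208). For both, the STARKO1 libraries lay between MA-10 replicate 1 below and MA-10 replicates 2 and 3 above. Dnaja3, the mitochondrial member of the class, had 154, 157 and 176 CPM against 117, 119.9 and 123 CPM, without overlap (adjusted p = 0.0906). In class B, Dnajb6, which keeps polyglutamine proteins from aggregating, was the highest per kb of exon averaged over all libraries, and had 106, 1318 and 770.3 CPM in MA-10 and 110.4, 117 and 117 CPM in STARKO1 (log2 fold change -2.67 ± 0.79, SE, adjusted p = 0.0698). As for Hspe1, MA-10 replicate 1 lay below the STARKO1 libraries, and MA-10 replicates 2 and 3 far above. Dnajb12 of the endoplasmic reticulum membrane had 57.3, 100.1 and 91.4 CPM against 47.9, 46.5 and 45.7 CPM, and Dnajb11 of its lumen had 57.4, 50.2 and 56.2 CPM against 64.1, 60.2 and 65.2 CPM (adjusted p = 0.0629 and 0.302).

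In class C, Dnajc8, a protein linked to splicing, was the highest per kb of exon, with 203, 547 and 372 CPM in MA-10 and 144, 144 and 134 CPM in STARKO1 (adjusted p = 0.0543). MA-10 replicate 1 lay above STARKO1 and below the other MA-10 libraries. It was followed by Dnajc2, which assists nascent chains at the ribosome, with 112, 261 and 293 CPM against 168, 179 and 179 CPM, and Dnajc21, which acts in the making of ribosomes, with 119, 204 and 211 CPM against 132, 131 and 134 CPM (adjusted p = 0.487 and 0.231). Among the J proteins that did not pass, Dnajb6, Dnajc19 and Dnajc15 had the log2 fold changes furthest from 0. Dnajc19 and Dnajc15 sit in the mitochondrial inner membrane at the import motor. Dnajc19 had 14.6, 126 and 83.6 CPM in MA-10 and 17.5, 16.7 and 18.7 CPM in STARKO1 (log2 fold change -2.08, adjusted p = 0.0819), and Dnajc15 had 36.3, 166 and 115 CPM against 34.2, 34.2 and 31.2 CPM (log2 fold change -1.67, adjusted p = 0.0708). In both genes MA-10 replicate 1 was close to STARKO1. Hspb11, which is known from intraflagellar transport, and Hspbap1, named for binding Hspb1, did not pass in edgeR with all 6 libraries (adjusted p = 0.0591 and 0.443). DESeq2 called Hspb11 lower (adjusted p = 0.00692). Without MA-10 replicate 1, edgeR called both genes lower (adjusted p = 0.000108 and 0.0011, all genes 31.7%).

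The members that differed most between MA-10 libraries were next set against the STARKO1 level. MA-10 replicate 1 was within 1.25-fold of the STARKO1 mean for 48 of the 90 tested members and for 53.7% of all genes. For 16 of the 90 tested members this held and the mean of MA-10 replicates 2 and 3 was at least 2-fold higher than the STARKO1 mean, against 9.18% of all genes, and for 0 of the 90 this held and that mean was at least 2-fold lower, against 5.83% of all genes. The 16 were 4 of the 5 prefoldin genes, Hspe1, Hsp90b1, Hspa9, St13, Cdc37l1, Bag1 and 6 J proteins. Without MA-10 replicate 1, 19 members were higher and 47 lower in STARKO1 at an adjusted p under 0.05, while the shares over all 12167 genes tested were 34% and 31.7%. The 5 with the largest log2 fold changes were Pfdn1 (-3.38), Pfdn4 (-3.30), Dnajb6 (-3.09), Hspe1 (-3.05) and Dnajc19 (-2.47). With MA-10 replicate 1 as the only MA-10 library, 28 members were higher and 18 lower, against 19.9% and 20.6% of 12565 genes. That fit assumes that the lone library varies as the STARKO1 libraries do. Both fits share the STARKO1 libraries.

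**Figure D4:**
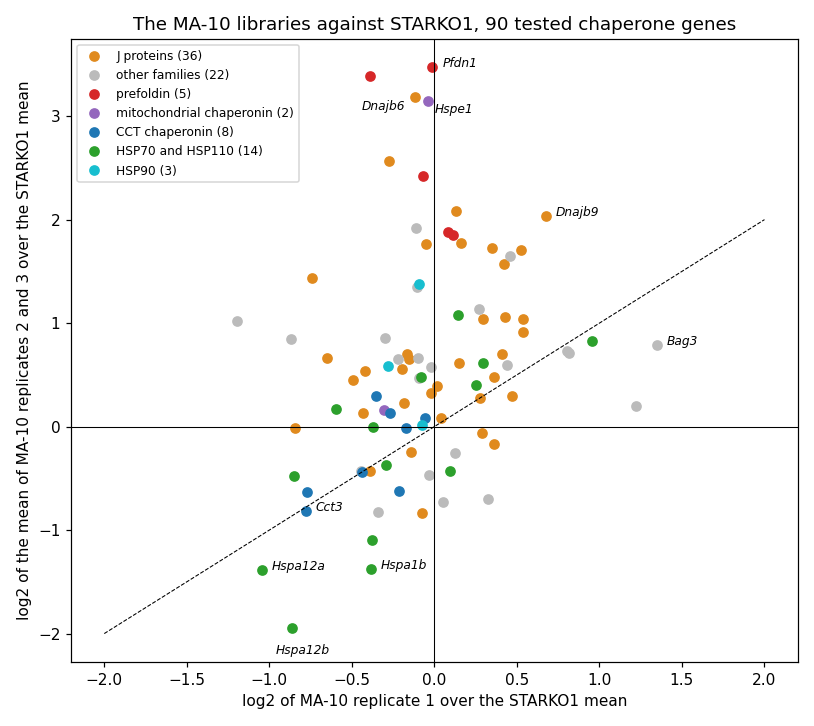
Each point is 1 of the 90 tested chaperone genes, coloured by family, with the log2 ratio of MA-10 replicate 1 to the STARKO1 mean on the x axis and the log2 ratio of the mean of MA-10 replicates 2 and 3 to the STARKO1 mean on the y axis, and the dashed line marks equal ratios. Pfdn1, Hspe1 and Dnajb6 sit near 0 on the x axis and above 3 on the y axis, while Cct3 and Hspa12a sit near the dashed line in the lower left.

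Transcript length moved with the difference between MA-10 libraries. The main transcript of a gene was taken as the longest of those that the annotation ranks highest as principal. It need not be the form expressed in these cells. For 88 members with an annotated main transcript, the log2 ratio of MA-10 replicate 2 to replicate 1 had a Pearson correlation of -0.40 with the log2 length of that transcript, and over 10617 genes it was -0.45. The points are genes of the same pair of libraries and are not independent. The median ratio was 3.19 for 16 members with a main transcript under 1500 bases, 1.37 for 40 members from 1500 to 3000 bases and 1.15 for 32 members of 3000 bases or more. The ratios ranged from 0.409 to 16.4 in the first class, from 0.480 to 12.4 in the second and from 0.529 to 5.20 in the third. Hspe1 (774 bases) and Pfdn1 (1109 bases) were in the first class. Dnajb6 (1605 bases), with a ratio of 12.4, was in the second. Dnaja1 (5622 bases, ratio 5.20) and Dnajc15 (6193 bases, ratio 4.57) were in the third. Between STARKO1 replicates 2 and 1 the correlation over the members was 0.07. The share of 7SL RNA and of ribosomal protein genes given above moved in the same libraries, and the part of transcript length and of these RNAs in the levels of the chaperone genes was not tested. A fit with offsets for gene length called 3 members higher (Cct3, Cct6a and Hspa12a) and 4 lower (Dnajb4, Dnajb9, Dnajc18 and Dnajc8), and 10.5% of all genes in either direction. In that fit the log2 fold changes of Dnajb6, Pfdn1 and Hspe1 were -2.79, -2.67 and -2.30, and these genes were not called. Its offsets used the joined length of all exons of a gene, not that of the main transcript. For Dnajb6 these lengths were 6062 and 1605 bases, and for Hspe1 1474 and 774 bases. The fit therefore cannot show what offsets for main transcript length would give, which was not tested.

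Sequence elements known for stress control were looked for in the promoters, to show which of the members above carry them. RefSeq promoter windows of build GRCm38.p6, from 250 bases before to 50 after a start, matched 75 of the 95 members. The heat shock element is built of GAA units in alternating orientation. An element of 2 units, GAANNTTC or TTCNNGAA on either strand, was in 18 of the 75 members (24%) and in 17% of 27025 genes. An element of 3 units, in which these strings overlap by 1 unit in either order, was in 4 members (5.33%), Hspe1, Hspd1, Dnajb6 and Hsph1, and in 0.662% of genes. Windows of Hspe1 and Hspd1 overlap and share that element. The element of the endoplasmic reticulum stress response, CCAAT followed by any 9 bases and CCACG, was in 3 members (4%), Hspa5, Hsp90b1 and Dnajc3, and in 0.137% of genes. The 250 bases before the start are given below for members whose values were described above, in the direction of transcription, with the element in capitals. They are Hspe1 at chr1:55087898-55088147 (forward strand), Dnajb6 at chr5:29735648-29735897 (forward strand), Hspa1b at chr17:34959239-34959488 (reverse strand), which has only a 2-unit element, Hspa5 at chr2:34771840-34772089 (forward strand) and Hsp90b1 at chr10:86705445-86705694 (reverse strand). For Hsph1 a stretch of 22 bases around the element after the start is given, at chr5:149636287-149636308 (reverse strand).
Hspe1: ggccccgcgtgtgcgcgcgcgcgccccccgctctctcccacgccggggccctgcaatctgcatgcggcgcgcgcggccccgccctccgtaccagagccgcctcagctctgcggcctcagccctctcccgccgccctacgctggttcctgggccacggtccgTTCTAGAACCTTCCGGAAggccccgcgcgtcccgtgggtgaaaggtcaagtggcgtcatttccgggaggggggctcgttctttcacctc
Dnajb6: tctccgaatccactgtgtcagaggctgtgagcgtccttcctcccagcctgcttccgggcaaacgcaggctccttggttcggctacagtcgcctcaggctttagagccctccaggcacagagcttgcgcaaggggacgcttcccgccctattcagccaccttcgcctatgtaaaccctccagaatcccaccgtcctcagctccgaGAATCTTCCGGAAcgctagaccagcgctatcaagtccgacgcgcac
Hspa1b: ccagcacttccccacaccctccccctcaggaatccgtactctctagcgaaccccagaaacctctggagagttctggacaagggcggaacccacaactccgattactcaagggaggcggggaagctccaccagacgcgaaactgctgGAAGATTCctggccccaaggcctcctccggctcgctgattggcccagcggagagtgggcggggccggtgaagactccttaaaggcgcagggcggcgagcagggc
Hspa5: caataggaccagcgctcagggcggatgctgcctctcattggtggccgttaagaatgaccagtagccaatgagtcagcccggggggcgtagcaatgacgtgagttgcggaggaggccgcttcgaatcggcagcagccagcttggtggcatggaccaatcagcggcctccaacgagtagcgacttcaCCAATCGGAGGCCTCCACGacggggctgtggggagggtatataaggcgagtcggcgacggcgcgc
Hsp90b1: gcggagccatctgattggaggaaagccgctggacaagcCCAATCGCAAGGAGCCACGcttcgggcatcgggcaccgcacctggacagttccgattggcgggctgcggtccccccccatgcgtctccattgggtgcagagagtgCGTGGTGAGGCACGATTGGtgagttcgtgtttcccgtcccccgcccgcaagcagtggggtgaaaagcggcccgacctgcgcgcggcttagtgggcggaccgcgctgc
Hsph1: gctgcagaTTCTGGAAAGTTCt

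The element begins 89 bases before the start for Hspe1, where 2 overlapping matches form 1 run, 46 before it for Dnajb6, 104 before it for Hspa1b and 65 before it for Hspa5, and Hsp90b1 holds 2 matches, at 212 and 107 before the start. Genes with the same element did not share a pattern of levels. Of the 4 with a 3-unit heat shock element, Hspe1 and Dnajb6 were many-fold higher in MA-10 replicates 2 and 3, Hspd1 differed little between libraries, and Hsph1 was higher in STARKO1 than in any MA-10 library. Of the 3 with the stress element of the endoplasmic reticulum, Hspa5 and Hsp90b1 were lowest in MA-10 replicate 1 among the MA-10 libraries, and Dnajc3, which had 72.04, 52.04 and 76.00 CPM in MA-10 and 54.3, 50.05 and 51.7 CPM in STARKO1 (adjusted p = 0.196), was lowest in MA-10 replicate 2. A match is a description of the letters in this window and no evidence of binding.

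**Figure D5:**
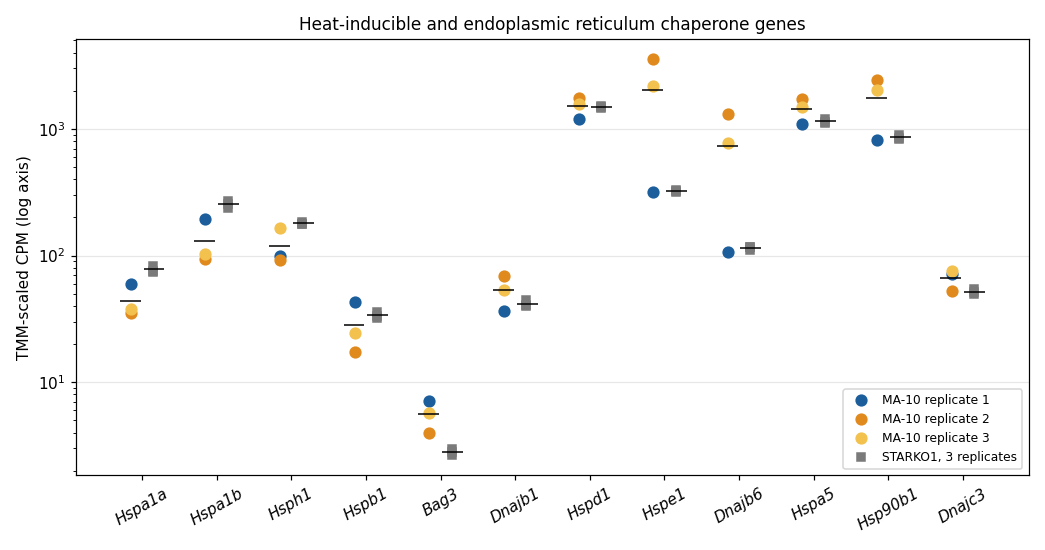
Levels in CPM on a log axis (y) of 12 heat-inducible or endoplasmic reticulum chaperone genes (x), with coloured circles for MA-10 replicates 1, 2 and 3, grey squares for the 3 STARKO1 libraries and bars for the mean of each line. The circles of Hspa1a and Hspa1b lie below the squares, those of Bag3 above them, and for Hspe1 and Dnajb6 the circle of MA-10 replicate 1 lies by the squares and the others above.

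Further chaperones and cochaperones with other names were counted from a list of 35 genes that holds, among others, the HSP90 cochaperones Ptges3 and Fkbp4, the mitochondrial HSP90 Trap1 and the exchange factors Grpel1, Hyou1 and Sil1. All 35 were tested, 0 were higher and 1 was lower in STARKO1 at an adjusted p under 0.05 in edgeR (all genes 4.3% and 4.74%), and at an unadjusted p under 0.05 the counts were 1 and 11 (all genes 15% and 22.7%). The 1 that fell was Sil1, an exchange factor for Hspa5 in the endoplasmic reticulum. Its level was 29.2, 125 and 82.4 CPM in MA-10 and 16.3, 19.5 and 14.7 CPM in STARKO1, a log2 fold change of -2.23 ± 0.50 (SE, adjusted p = 0.0422). MA-10 replicate 1 lay above the STARKO1 libraries and below the other MA-10 libraries, as for Dnajb9. Sil1 was called in 1 of the 6 fits that left out 1 library, that without MA-10 replicate 1. In that fit 5 of the 35 were higher and 17 lower in STARKO1 (all genes 34% and 31.7%), and DESeq2 called 1 higher and 7 lower (all genes 9.48% and 15.4%). In bulk RNA, fewer cells with a transcript and less of it per cell cannot be told apart.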

How the data were processed

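Total RNA of untreated cells was extracted with the Qiagen Allprep kit, and libraries were made with the SMARTer Total RNA Stranded Pico V2 kit, per the labels. The authors deposited estimated counts per gene and library, not normalized and with replicates kept apart. The submitters' processing notes name STAR 2.6.1d, Partek and mm10, and the counting program, its strand setting and the annotation are not given in the sources used here. At a tolerance of 0.001, 43.8% of genes showed at least 1 fractional value, and no listed gene had a total under 10. Coordinates were those of build GRCm38, in which 14634 of 14677 matched genes had the annotated start.

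After rounding to whole numbers, the values were fitted with edgeR 4.0.16 under R 4.3.3 (filterByExpr, TMM, glmQLFit and glmQLFTest, no covariates). Benjamini-Hochberg adjustment ran over all genes tested, and an adjusted p under 0.05 was called. The alternatives were DESeq2 1.42.0, upper quartile scaling, library size alone, no filter, at least 10 counts in every library, offsets for exonic gene length (loess, span 0.3) with and without a replicate block, the block, and leaving out each library. MA-10 replicate 1 alone against STARKO1 was added after the data were seen. CPM per kb of exon used GENCODE M21 lengths. Tables and figures used Python 3.11.15, pandas 2.3.3, numpy 2.4.6 and matplotlib 3.10.9. The main edgeR fit, the block, the length offsets and DESeq2 were tested on simulated counts. The simulation gave every gene the same dispersion and held no library that stood apart. It therefore does not cover a split such as that of MA-10 replicate 1.

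The members and lists were chosen with earlier results of these data known. The genes named are all called members, the tested members outside the J proteins except 1 that is not reported here, the 3 highest J proteins per kb of exon in each class, and the 3 uncalled J proteins with the largest log2 fold changes. Dnajc3 was named after its promoter was seen. The steroid, lipid and protein assays of the study were not analysed here.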

Additional observations from a re-analysis of the deposited data

How the results depend on the processing

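Differentially expressed genes numbered 1079 with all 6 libraries in edgeR, 3385 with DESeq2, 5086 with MA-10 replicate 1 as the only MA-10 library, 695 with at least 10 counts in every library and 330 with library size alone, and between 89 and 7990 when 1 library was left out. Chaperone genes higher in STARKO1 numbered 2, against 9 with DESeq2, 28 with MA-10 replicate 1 alone and 0 with library size alone (35 members in either direction at an unadjusted p under 0.05), and between 0 and 19 with 1 library left out. Chaperone genes lower in STARKO1 numbered 4, against 28, 18 and 0 in the same order, 2 with at least 10 counts in every library, 2 with no filter and 1 with upper quartile scaling, and between 0 and 47 with 1 library left out. Among the fits that left out 1 library, the highest counts were those without MA-10 replicate 1. Leaving out MA-10 replicate 3 or any one STARKO1 library gave no member called, with 26 to 35 members at an unadjusted p under 0.05.

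No pairing of the libraries by replicate number was seen, as the correlations of same-numbered deviations were -0.02, 0.06 and 0.01. With 3 libraries per line, these values cannot decide whether libraries of the same number were handled together. A replicate block gave 234 genes and 0 members called in each direction, with 33 members at an unadjusted p under 0.05 and the lowest adjusted p of the 6 called members at 0.0535, for Hspa12a. The call of Sil1, outside the members, was also lost under the block (adjusted p = 0.0699). The block with offsets for gene length gave 255 genes, 1 member higher and 0 lower.

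With MA-10 replicate 1 alone, the log2 fold changes of Pfdn1 (0.0138), Pfdn2 (0.0707), Pfdn4 (0.39), Hspe1 (0.0419), Dnajb6 (0.12), Dnajc19 (0.27) and Hsp90b1 (0.0923) reversed. For the 30 genes with a fold change in the text, 331 values over the alternatives kept direction and side of the threshold, 59 gained a call, 53 lost one and 7 reversed. The causes were not tested.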

Other observations

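The table also lists genes whose symbols resemble those of chaperones but which are pseudogenes or other genes. Hspd1-ps3, a processed pseudogene of Hspd1, had 753, 289 and 350 estimated counts in MA-10 libraries 1, 2 and 3 and 1217, 904 and 920 in STARKO1 (adjusted p = 0.0841 in edgeR). Hsp25-ps1, a processed pseudogene named for HSP25, the product of Hspb1, had 84.98, 0 and 0.870 estimated counts in MA-10 and 87.3, 59.0 and 90.4 in STARKO1 (adjusted p = 0.462). Its counts were near 0 in the MA-10 libraries 2 and 3 alone, the libraries in which Hspb1 was also lowest. How reads were divided between these pseudogenes and their parent genes is not given in the sources used here.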
